A study of Mus musculus with 12 samples.

Results

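The cardiac mesoderm transcription regulators examined here were 10 genes, Mesp1, Gata4, Gata5, Gata6, Hand1, Hand2, Isl1, Nkx2-5, Mef2c and Smarcd3. Each was taken as the assembled locus whose transcripts carry that gene's name and match the reference annotation exactly or as a new isoform of it. This gave 1 locus per gene, 10 of the 80012 loci counted in the series. A total of 17922 protein-coding or long noncoding loci passed the study's filter on low values, a mean above 0.1 FPKM (read counts scaled to library size and exon length) in at least 1 group, and entered the tests. Of the 10 regulators 9 passed it, and Gata5 did not.

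RNA-Seq was carried out on mouse embryonic stem cells (ESC) and on the cells obtained from them after 3 days of differentiation, to profile the earliest mesendoderm progenitors. All 12 libraries came from an EomesEGFP reporter line on a C57BL/6 background, in which EGFP stands at the start site of Eomes, a T-box factor of the primitive streak. ESC were grown on mouse embryonic fibroblast feeders. Day 3 embryoid bodies were sorted by fluorescence into a GFP-positive (Eo+) and a GFP-negative (Eo-) fraction, and each of the 3 groups holds replicates 1, 2, 5 and 6, which the study's methods describe as 4 differentiation sets. All groups carry the reporter allele, and no line without it was compared. Each library is a bulk mixture of whatever cells passed the gate.

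These regulators act in succession when mesoderm turns into heart. Mesp1 is a basic helix-loop-helix factor switched on in nascent mesoderm as it leaves the primitive streak, and Eomes is known to act upstream of it. The zinc finger factors Gata4, Gata5 and Gata6, the helix-loop-helix factors Hand1 and Hand2, the homeodomain factors Isl1 and Nkx2-5 and the MADS-box factor Mef2c are then used in the cardiac crescent and heart tube. Smarcd3 encodes BAF60c, the subunit through which the BAF chromatin remodelling complex works with these factors. GATA4 and GATA6 also act in endoderm, and GATA, HAND and MEF2 factors in other mesoderm, so none of these genes marks heart cells alone.

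The stretch upstream of the RefSeq start site, and of the start sites of assembled transcripts that match the reference exactly, is shown for Hand2, Isl1, Smarcd3 and Nkx2-5. The first 3 hold a word read by GATA factors, and Nkx2-5, the regulator whose pattern over the libraries was most like that of Smarcd3, holds none. Sequences are from RefSeq on build GRCm38.p6, written 5′ to 3′ on the gene's own strand, with GATA words on either strand in capitals.

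Hand2 (chr8:57320733-57320982, plus strand): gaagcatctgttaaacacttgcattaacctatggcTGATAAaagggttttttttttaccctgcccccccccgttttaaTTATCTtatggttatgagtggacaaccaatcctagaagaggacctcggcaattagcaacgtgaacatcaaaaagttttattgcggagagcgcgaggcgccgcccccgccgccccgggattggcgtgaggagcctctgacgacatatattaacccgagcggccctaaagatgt
Isl1 (chr13:116309690-116309938, minus strand): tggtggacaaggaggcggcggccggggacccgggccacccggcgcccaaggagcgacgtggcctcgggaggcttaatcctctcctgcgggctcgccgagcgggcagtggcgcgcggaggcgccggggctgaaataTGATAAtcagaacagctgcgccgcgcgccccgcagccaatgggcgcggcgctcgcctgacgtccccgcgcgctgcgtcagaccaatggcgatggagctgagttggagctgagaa
Nkx2-5 (chr17:26841605-26841815, minus strand): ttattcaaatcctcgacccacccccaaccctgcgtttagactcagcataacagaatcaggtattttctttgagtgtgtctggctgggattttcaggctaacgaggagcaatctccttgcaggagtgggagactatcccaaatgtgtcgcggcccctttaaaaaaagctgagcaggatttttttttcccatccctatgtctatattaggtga
Smarcd3 (chr5:24602013-24602252, minus strand): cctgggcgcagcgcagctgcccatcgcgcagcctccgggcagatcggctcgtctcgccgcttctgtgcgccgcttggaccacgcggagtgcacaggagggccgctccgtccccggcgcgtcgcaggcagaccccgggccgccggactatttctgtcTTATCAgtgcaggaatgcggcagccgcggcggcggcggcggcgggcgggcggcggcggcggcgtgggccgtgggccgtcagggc

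Promoter sequences were matched for 7 of the 10 regulators (Mesp1, Gata5, Hand2, Isl1, Nkx2-5, Mef2c and Smarcd3), as the 250 bases before the start site. The GATA word AGATAA was searched on both strands. The form AGATAG, with another last letter, was searched as well. With T as the first letter, TGATAA was searched too, and so was the form TGATAG. At least 1 of these 4 words occurred in 3 of these 7 windows, against 26.5% of 32851 windows of the same length. Hand2 held 2 of them, which began 215 and 172 bases before the start site, and the second is on the opposite strand, so that it reads TTATCT above. Isl1 held 1 at 115 bases and Smarcd3 1 at 94 bases. The helix-loop-helix E-box CANNTG occurred in 7 of 7 windows and in 66.2% of all windows. The T-box core AGGTGT, on either strand, occurred in the Mesp1 window alone, 233 bases before the start site, and in 11.8% of all windows. These matches describe letters and not bound sites.

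Counts per library summed to 648413022 to 837308168, so 3 counts amounted to at most 0.00485 CPM (counts scaled to a common library size by TMM). The labelled identities were checked against marker genes. Eomes averaged 48.2 CPM in ESC, 142 CPM in Eo- and 547 CPM in Eo+, so the Eo- fraction kept 25.9% of the Eo+ level and was not free of Eomes RNA. The summed level of 6 pluripotency genes was 2850 to 3700 CPM in ESC, 1320 to 1700 CPM in Eo- and 471 to 831 CPM in Eo+. Of 5 genes of beating cardiomyocytes, 4 were tested as 3 loci, since Myh6 and Myh7 share 1 and Tnni3 is merged with Tnnt1 and Dnaaf3. None of the 3 was called higher in Eo+ than in ESC or in Eo-, where 35.8% and 23.0% of all loci were. In Eo+ 1 of 3 was called lower than in ESC and 2 of 3 lower than in Eo-, where 36.1% and 24.6% of all loci were. In Eo- against ESC 2 of 3 were called higher, where 30.9% of all loci were. These were Myl2, by 1.73, and the Tnni3 locus, by 0.56 on the log2 scale (limma, adjusted p = 0.000284 and 0.0107). Nppa, a natriuretic peptide of atrial muscle, was under 0.1 CPM on average in each group. Feeder fibroblast genes summed to 137 to 408 CPM in ESC, and to 21.9 to 39.8 CPM in the sorted fractions.

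In Eo+ against ESC, Mesp1, Gata4, Gata6, Hand1, Hand2, Isl1 and Mef2c rose, Smarcd3 fell, and Nkx2-5 did not pass the test. With limma and Benjamini-Hochberg adjustment over all loci, 7 of the 9 tested regulators were called higher and 1 lower, where 71.9% of all loci were called, 35.8% higher and 36.1% lower. Their median log2 fold change was 4.68, against 0.00239 over all loci tested. In 8 of 10 regulators, with Gata5 counted in, all Eo+ libraries lay above all ESC libraries, as in 32.2% of loci, and in 0 they lay below, as in 32.3% of loci. In bulk RNA a larger share of expressing cells and more RNA per cell cannot be told apart, here and in all that follows.

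In Eo+ against Eo-, 8 of 9 tested regulators were called higher and 0 lower, where 47.7% of all loci were called, 23.0% higher and 24.6% lower. Mef2c was the one not called, and with the replicate number as a block, which paired the fractions, it was called too (limma, adjusted p = 0.0404), so that all 9 were higher. The shares of all loci given above are those of the fit without the block, and that of the fit with it is not given here. The median was 2.93, against -0.0145 over all loci. In 7 of 10 the 4 Eo+ libraries lay above the 4 Eo- libraries, as in 22.3% of all loci, and in 0 below them, as in 23.6%, while Gata5, Hand1 and Mef2c overlapped.

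In Eo- against ESC the picture was mixed. Mesp1, Isl1 and Mef2c rose, Nkx2-5 and Smarcd3 fell, and Gata4, Gata6, Hand1 and Hand2 were not called. These 5 calls of 9 stand beside 62.2% of all loci called, 30.9% higher and 31.3% lower, which is near the share among the regulators. The median was 1.78, against 0.0156 over all loci. In 3 regulators the Eo- libraries lay above and in 2 below all ESC libraries, as in 27.6% and 28.2% of loci. The number called in this comparison was the one that depended most on the test, since edgeR and DESeq2 each called all 9, with 7 higher and 2 lower. The share of all loci called by edgeR and DESeq2 is not given here, so these 2 counts are not read as a trait of the regulators. The Eo+ and Eo- comparisons share the same ESC libraries and are not independent of each other.

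**Figure D1:**
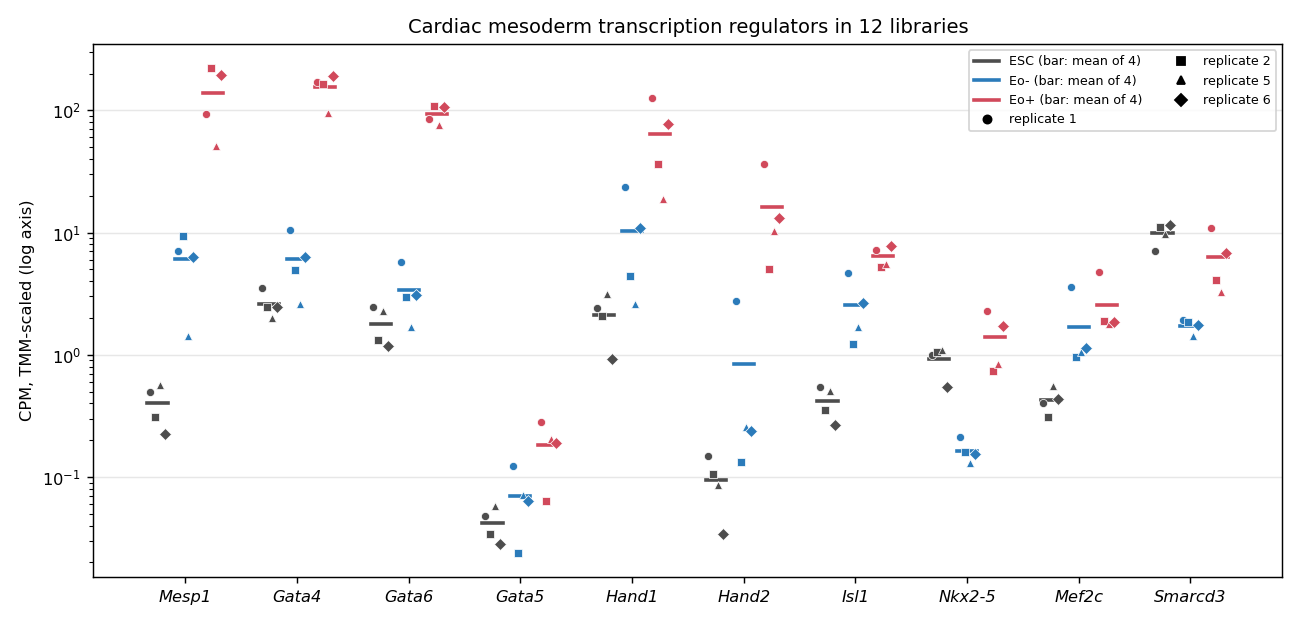
CPM of the 10 regulators in each of 12 libraries on a log axis, with ESC in grey, Eo- in blue and Eo+ in red, point shapes for the replicate numbers and bars for group means. Mesp1, Gata4 and Gata6 sit at 50.6 to 221 CPM in Eo+, clear of both other groups, whereas Nkx2-5 and Smarcd3 are lowest in Eo-.

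**Figure D2:**
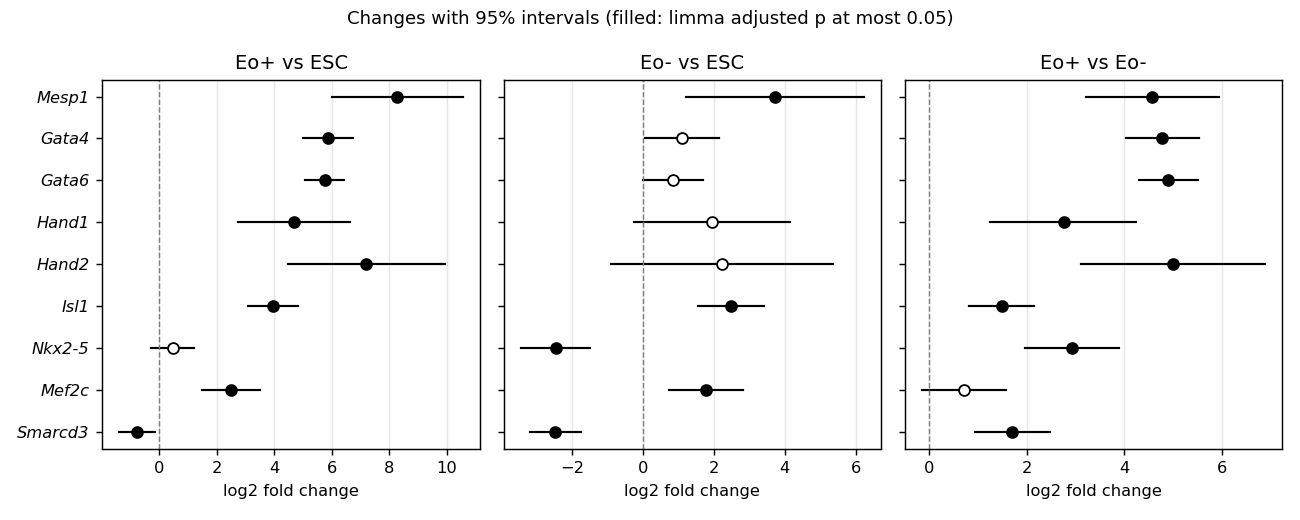
Log2 fold change from limma with its 95% interval for the 9 tested regulators in 3 comparisons, with filled points at an adjusted p of at most 0.05. Nkx2-5 (0.46) is open in Eo+ against ESC, Mef2c (0.71) in Eo+ against Eo-, and Gata4, Gata6, Hand1 and Hand2 in Eo- against ESC.

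Mesp1 (ENSMUSG00000030544, chr7:79792234-79811286, minus strand, mm10) was assembled as 3 transcripts. It stood at 0.499, 0.310, 0.567 and 0.224 CPM in ESC replicates 1, 2, 5 and 6, at 7.09, 9.34, 1.43 and 6.29 CPM in Eo-, and at 92.8, 221, 50.6 and 193 CPM in Eo+. The 3 groups did not overlap, and replicate 5 was the lowest in both fractions while it was the highest in ESC. The log2 fold change was 8.29 ± 1.06 (SE; n = 4 and 4; limma, adjusted p = 8.18e-06) in Eo+ and 3.72 ± 1.17 (limma, adjusted p = 0.0134) in Eo- against ESC. Between the fractions it was 4.57 ± 0.63 (limma, adjusted p = 6.6e-05). Mesp1 had the highest mean level per length of the 10 regulators in Eo+, 50.5 ± 29.3 FPKM (SD, n = 4). By library it was below Hand1 and Gata4 in Eo+ replicate 1 and below Gata4 and Gata6 in Eo+ replicate 5. In ESC Mesp1 ranked by its mean below Smarcd3, Hand1, Gata4, Gata6 and Nkx2-5, with 0.145 ± 0.0580 FPKM.

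Gata4 (ENSMUSG00000021944, chr14:63198913-63271692, minus strand) had 3.50, 2.45, 2.01 and 2.44 CPM in ESC replicates 1, 2, 5 and 6, then 10.5, 4.94, 2.61 and 6.36 CPM in Eo- and 172, 164, 94.7 and 191 CPM in Eo+. All Eo+ libraries were far above the rest, and only replicate 5 of Eo- fell within the ESC range. Gata4 rose by 5.88 ± 0.40 on the log2 scale in Eo+ against ESC (limma, adjusted p = 2.46e-08) and by 4.78 ± 0.34 in Eo+ against Eo- (limma, adjusted p = 4.04e-07). In Eo- against ESC its difference was 1.10 ± 0.49 (95% interval 0.05 to 2.15; limma, adjusted p = 0.0637). It was called under 7 of 22 alternatives, among them without Eo- replicate 5, where it was 1.44, and it was 0.77 without Eo- replicate 1.

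Gata6 (ENSMUSG00000005836, chr18:11051834-11085651, plus strand) showed the same order of groups. Its levels were 2.44, 1.32, 2.26 and 1.17 CPM in ESC, 5.76, 2.96, 1.68 and 3.07 CPM in Eo- and 85.0, 108, 75.4 and 106 CPM in Eo+, replicates in the same order. Eo+ stood apart with a narrow spread, and Eo- replicate 5 lay among the ESC libraries. The differences were 5.75 ± 0.31 in Eo+ against ESC (limma, adjusted p = 3.37e-09) and 4.90 ± 0.28 in Eo+ against Eo- (limma, adjusted p = 7.58e-08). In Eo- against ESC the difference was 0.85 ± 0.39 (95% interval 0.01 to 1.68; limma, adjusted p = 0.0725), and it was called without Eo- replicate 5, where it was 1.13.

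Gata5 (ENSMUSG00000015627, chr2:180325133-180334699, minus strand), the third cardiac GATA factor, was nearly silent. It gave 0.0481, 0.0344, 0.0578 and 0.0282 CPM in ESC, 0.123, 0.0240, 0.0713 and 0.0635 CPM in Eo- and 0.279, 0.0631, 0.203 and 0.189 CPM in Eo+, which are 18 to 211 counts per library. Each Eo+ library was above each ESC library, and Eo+ replicate 2 was below Eo- replicates 1, 5 and 6. Per length it was at 0.0560 ± 0.0273 FPKM in Eo+ (SD, n = 4), under the filter, and the fit without that filter gave 2.03 against ESC (limma, adjusted p = 0.00647) and 1.40 against Eo- (limma, adjusted p = 0.0537). Among the other GATA genes, used in blood and trophoblast, Gata3 rose by 3.61 ± 0.37 (limma, adjusted p = 9.33e-07) and Gata2 by 1.53 ± 0.63 (limma, adjusted p = 0.0421) in Eo+ against ESC. Gata1, the erythroid factor, averaged 1.09 CPM in ESC, 2.82 CPM in Eo- (0.929 to 7.93 CPM) and 3.41 CPM in Eo+ (1.05 to 7.38 CPM) and was called in none of the 3 comparisons.

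Hand1 (ENSMUSG00000037335, chr11:57828704-57832818, minus strand) had 2.41, 2.06, 3.12 and 0.925 CPM in ESC, 23.6, 4.41, 2.62 and 10.9 CPM in Eo- and 125, 36.1, 18.7 and 77.3 CPM in Eo+. Both fractions ran in the order of replicates 1, 6, 2 and 5, and Eo+ replicate 5 was lower than Eo- replicate 1. Hand1 rose by 4.68 ± 0.90 in Eo+ against ESC (limma, adjusted p = 0.000342) and by 2.75 ± 0.70 in Eo+ against Eo- (limma, adjusted p = 0.00532), although those groups overlapped. In Eo- against ESC the difference was 1.94 ± 1.02 (95% interval -0.26 to 4.13; limma, adjusted p = 0.113). Leaving out Eo- replicate 1 moved it to 1.35 and leaving out Eo- replicate 5 to 2.43, and the rise in Eo+ against Eo- to 3.34 and 2.26. Hand1 is also used in trophoblast and extraembryonic mesoderm. The 5 trophoblast genes summed to 54.3 to 64.8 CPM in ESC, where Hand1 was lowest, to 53.8 CPM in Eo- replicate 1 against 16.5 to 30.0 CPM in the remaining Eo- libraries, and to 20.0 to 27.4 CPM in Eo+. Tfap2c made up 40.2 to 52.5 CPM of the ESC sums and Cdx2 35.1 CPM of that in Eo- replicate 1, while Elf5 stayed under 0.2 CPM in every library. Their part in the Hand1 level was not tested.

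Hand2 (ENSMUSG00000038193, chr8:57320251-57324605, plus strand) had 0.149, 0.105, 0.0860 and 0.0344 CPM in ESC, 2.73, 0.132, 0.257 and 0.239 CPM in Eo- and 36.5, 5.03, 10.3 and 13.2 CPM in Eo+. Replicate 1 carried most of the Eo- level. Of the other 3 Eo- libraries, replicates 5 and 6 lay above every ESC library and replicate 2 within their range, and the 3 averaged 0.209 CPM against 0.0936 CPM in ESC. Without it the Eo- difference from ESC was 1.24 in place of 2.22 ± 1.46 (95% interval -0.92 to 5.36; limma, adjusted p = 0.200). The rise in Eo+ was 7.21 ± 1.27 against ESC (limma, adjusted p = 0.00016) and 4.99 ± 0.88 against Eo- (limma, adjusted p = 0.000427), where it was 5.98 without Eo- replicate 1 and 4.46 without Eo+ replicate 1.

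Isl1 (ENSMUSG00000042258, chr13:116298260-116309689, minus strand), a factor of second heart field progenitors that is also used in neurons and foregut endoderm, had 0.546, 0.356, 0.502 and 0.266 CPM in ESC, 4.69, 1.22, 1.69 and 2.65 CPM in Eo- and 7.24, 5.23, 5.53 and 7.73 CPM in Eo+. The 3 groups did not overlap. It rose by 3.96 ± 0.40 in Eo+ (limma, adjusted p = 9.79e-07) and by 2.48 ± 0.43 in Eo- (limma, adjusted p = 0.000216), each against ESC, and by 1.48 ± 0.31 between the fractions (limma, adjusted p = 0.00153). Mean Isl1 in Eo- was 39.8% of that in Eo+, where for Gata4, Gata6 and Mesp1 it was 3.90%, 3.60% and 4.35%. This was not particular to Isl1, since Mef2c, Gata5 and Smarcd3 stood at 65.2%, 38.3% and 27.7%.

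Mef2c (ENSMUSG00000005583, chr13:83504034-83667092, plus strand), which also serves blood vessels and neurons, had 0.406, 0.308, 0.551 and 0.434 CPM in ESC, 3.56, 0.954, 1.06 and 1.13 CPM in Eo- and 4.71, 1.89, 1.79 and 1.85 CPM in Eo+. Replicate 1 stood above the others in both fractions, and its Eo- library exceeded 3 of 4 Eo+ libraries. Mef2c rose by 2.50 ± 0.47 in Eo+ (limma, adjusted p = 0.00031) and by 1.78 ± 0.49 in Eo- against ESC (limma, adjusted p = 0.00602). Between the fractions the difference was 0.71 ± 0.40 (95% interval -0.15 to 1.58; limma, adjusted p = 0.159). It was called with the replicate block (0.68) and without Eo- replicate 1 (1.18; limma, adjusted p = 0.0113).

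Nkx2-5 (ENSMUSG00000015579, chr17:26836918-26841604, minus strand), a homeodomain factor of early cardiomyocytes, followed another course. It had 1.00, 1.06, 1.10 and 0.545 CPM in ESC, 0.211, 0.161, 0.129 and 0.155 CPM in Eo- and 2.26, 0.736, 0.832 and 1.72 CPM in Eo+. Eo- was below every other library, and of the Eo+ libraries replicates 2 and 5 were within the ESC range and replicates 1 and 6 above it. Nkx2-5 fell by 2.47 on the log2 scale in Eo- against ESC (SE 0.45; limma, adjusted p = 0.000351) and was higher by 2.93 ± 0.45 in Eo+ than in Eo- (limma, adjusted p = 0.000139). In Eo+ against ESC it differed by 0.46 ± 0.35 (95% interval -0.28 to 1.21; limma, adjusted p = 0.245), and its level per length in Eo+ was 0.419 ± 0.220 FPKM (SD, n = 4).

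Smarcd3 (ENSMUSG00000028949, chr5:24590762-24624404, minus strand) was highest in ESC. It had 7.02, 11.1, 9.72 and 11.5 CPM in ESC, 1.92, 1.84, 1.42 and 1.75 CPM in Eo- and 10.8, 4.12, 3.23 and 6.86 CPM in Eo+. The Eo- libraries were below all others with little spread, and Eo+ replicate 1 was within the ESC range. Smarcd3 fell by 2.48 in Eo- against ESC (SE 0.34; limma, adjusted p = 2.74e-05) and was higher by 1.70 ± 0.36 in Eo+ than in Eo- (limma, adjusted p = 0.00148). In Eo+ against ESC it fell by 0.77 (SE 0.29; limma, adjusted p = 0.0264), a call that was lost with edgeR (adjusted p = 0.0704) and without ESC replicate 2 (limma, adjusted p = 0.0649) or 6 (limma, adjusted p = 0.0641) or without Eo+ replicate 2 (limma, adjusted p = 0.0925) or 5 (limma, adjusted p = 0.105). The assembled Smarcd3 locus shares 3715 exon bases, 77.3% of its exon length, with the Chpf2 locus on the opposite strand. Reads were counted by strand. Chpf2, with 12.2 CPM in ESC, 14.4 CPM in Eo- and 15.4 CPM in Eo+, was called higher in Eo+ against ESC (0.33 ± 0.12; limma, adjusted p = 0.0216) and was not called in the other comparisons, and its part in the Smarcd3 counts was not tested.

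Smarcd3 is 1 of 3 alternative BAF60 subunits, of which a complex holds one at a time. Smarcd1 averaged 239, 239 and 192 CPM in ESC, Eo- and Eo+, and fell by 0.32 (SE 0.09; limma, adjusted p = 0.00574) in Eo+ against ESC. Smarcd2 averaged 78.8, 87.9 and 96.7 CPM, and rose by 0.29 ± 0.10 (limma, adjusted p = 0.0175). Of 20 tested genes for BAF subunits, 12 were called higher and 3 lower in Eo+ against ESC, with a median of 0.31, and their share called, 75.0%, is near the 71.9% of all loci. Dpf3, a BAF subunit that reads histone acetylation and is used in heart and muscle, rose by 3.79 ± 0.29 (limma, adjusted p = 6.31e-08), and Smarca2, an ATPase of the complex, by 2.73 ± 0.16 (limma, adjusted p = 7.23e-09). Dpf1, a neural counterpart of Dpf3, fell by 1.31 (SE 0.10; limma, adjusted p = 9e-08).

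Set by set, all 10 regulators were higher in Eo+ than in Eo- at each of the 4 replicate numbers, as were 33.0% of all loci, while 33.6% were lower at each. The ratio for Gata6 was 14.7, 36.4, 44.9 and 34.4 in replicates 1, 2, 5 and 6. That for Hand2 was 13.4, 38.1, 40.0 and 55.1. For Hand1 it was 5.30, 8.18, 7.14 and 7.10. Replicate 1 gave the smallest ratio in 8 of 10 regulators, and the exceptions were Nkx2-5 (10.7, 4.56, 6.47 and 11.1) and Smarcd3 (5.61, 2.23, 2.28 and 3.91). The share of all loci with their smallest ratio in replicate 1 is not given here. The ratio was small and even for Mef2c, with 1.32, 1.98, 1.68 and 1.64, and for Gata5, with 2.28, 2.63, 2.84 and 2.98.

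**Figure D3:**
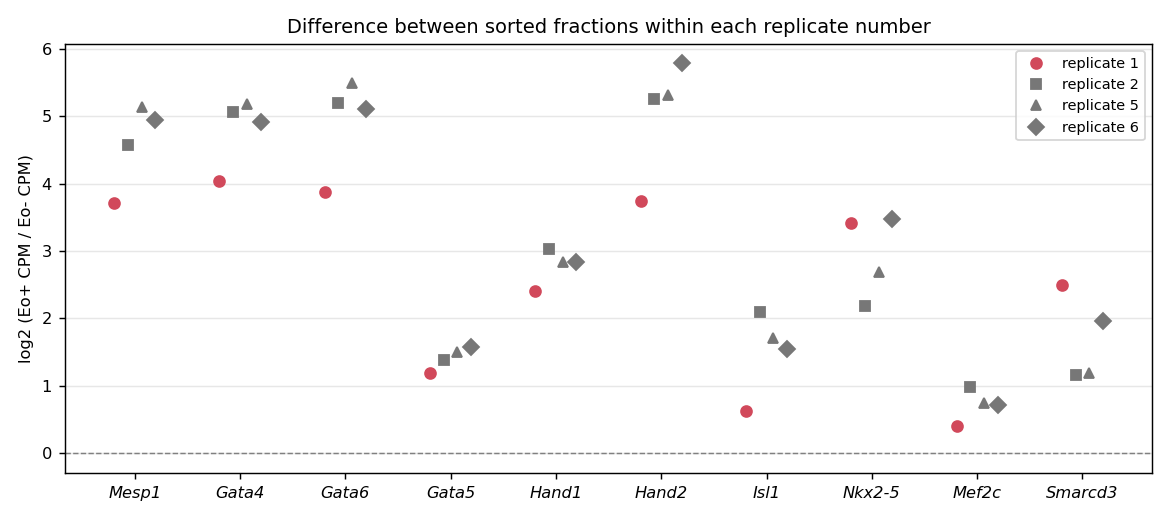
Log2 ratio of Eo+ to Eo- CPM for each regulator within each replicate number, replicate 1 in red. All 40 points lie above 0, and the replicate 1 point is the lowest for 8 of 10 regulators.

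Eo- replicate 1 was the highest Eo- library for 9 of 10 regulators, all but Mesp1, and Eo+ replicate 1 the highest of its group for 6 of 10. These counts only describe the libraries, since several regulators were strongly correlated and the share of all loci highest there is not given. Marker genes of blood and endothelial precursors were also highest in Eo- replicate 1, at a summed 255 CPM where replicates 2, 5 and 6 had 35.7 to 61.8 CPM. In Eo+ they summed to 288, 169, 76.8 and 264 CPM in replicates 1, 2, 5 and 6. Of these 10 markers, 4 were called higher and 2 lower in Eo+ against Eo-, where 23.0% of all loci were higher and 24.6% lower. None averaged under 0.1 CPM in either fraction, and the part of such cells in the regulators' levels was not tested. Etv2, which directs mesoderm to blood and endothelium, was higher in Eo+ by 2.49 ± 0.46 (limma, adjusted p = 0.000623), while Hba-x, an embryonic globin, was lower by 4.40 (SE 1.43; limma, adjusted p = 0.0216) and Pecam1, an adhesion molecule of endothelium and of ESC, by 2.84 (SE 0.62; limma, adjusted p = 0.00203). Hba-x ran from 0.333 to 16.8 CPM in Eo- (mean 4.79) and from 0.0291 to 0.275 CPM in Eo+ (mean 0.104).

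Endoderm genes also moved with the regulators. Of 7 definitive endoderm markers 7 were higher in Eo+ than in ESC, as were 35.8% of all loci, and 6 were higher in Eo+ than in Eo-, as were 23.0%. Their sum was 61.6 to 84.5 CPM in ESC, 278 to 298 CPM in Eo- and 658 to 1150 CPM in Eo+. Cldn6, a claudin, made up most of the sum outside Eo+, with means of 60.0 CPM in ESC, 235 CPM in Eo- and 235 CPM in Eo+, and without it the other 6 summed to 10.4 to 21.2, 39.2 to 62.4 and 459 to 769 CPM. The highest library with and without Cldn6 was Eo+ replicate 5, which was the lowest Eo+ library for Mesp1, Gata4, Gata6, Hand1, Mef2c and Smarcd3. Of 10 visceral or primitive endoderm markers, 5 were higher and 1 lower in Eo+ against Eo-, where 23.0% of all loci were higher and 24.6% lower, and they summed to 97.3 to 107 CPM in ESC, 51.9 to 71.4 CPM in Eo- and 136 to 254 CPM in Eo+. Rhox5, which is also expressed in ESC, made up most of the ESC sum, with a mean of 84.6 CPM there, 29.0 CPM in Eo- and 6.48 CPM in Eo+. Without it the other 9 summed to 17.3 ± 3.32 CPM in ESC, 29.2 ± 14.0 CPM in Eo- and 172 ± 52.7 CPM in Eo+ (SD, n = 4). Pdgfra, which mesoderm also expresses, made up 94.8 CPM of the Eo+ mean, and without both genes the remaining 8 summed to 15.0 ± 2.69 CPM in ESC, to 16.5 to 41.2 CPM in Eo- (mean 23.2) and to 25.7 to 153 CPM in Eo+ (mean 77.7). Of these 10, 3 were under 0.1 CPM on average in ESC (Ttr, Afp and Apoa4) and none in a fraction. What part of Gata4 and Gata6 RNA came from endoderm was not tested.

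In ESC the regulators other than Smarcd3 were low, and feeder cells are a part of that culture. Feeder genes summed to 367, 189, 408 and 137 CPM in ESC replicates 1, 2, 5 and 6. Replicates 1 and 5 were also the 2 highest ESC libraries for 5 of 10 regulators, Mesp1, Gata5, Gata6, Hand1 and Isl1. They were not for Gata4, Hand2, Nkx2-5, Mef2c and Smarcd3, and the share of all loci with this order is not given here. All 9 tested feeder genes of 10 were lower in Eo+ than in ESC, as were 36.1% of all loci, and none averaged under 0.1 CPM in ESC. The feeders' part in the ESC levels was not tested.

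Levels can be ranked between genes only per length of exon. In Eo+ the 4 leading regulators were Mesp1 at 50.5, Gata4 at 34.7, Hand1 at 29.8 and Gata6 at 24.0 FPKM (means, n = 4), and each overlapped its neighbour in this order. Hand2 followed at 6.12 ± 5.23 FPKM (SD, n = 4), or 3.58 FPKM without replicate 1, below all Gata6 libraries. Isl1 came next at 1.51 ± 0.290 FPKM, below all Hand2 libraries. Smarcd3, Nkx2-5 and Mef2c, at 1.30, 0.419 and 0.354 FPKM, formed an overlapping series, and Gata5 lay below all of them. In ESC the order was led by Smarcd3 at 2.05 ± 0.425 FPKM, above all Hand1 libraries (0.987 ± 0.424 FPKM), and from Hand1 down to Gata5 each gene overlapped the next. In Eo- Hand1 led by its mean, 4.82 ± 4.41 FPKM, which was 2.77 FPKM without replicate 1, and in replicate 2 Mesp1 (3.38 FPKM) was above Hand1 (2.05 FPKM). The first 8 genes overlapped from neighbour to neighbour down to Mef2c at 0.232 ± 0.174 FPKM, which was 0.145 FPKM without replicate 1. Nkx2-5 followed at 0.0495 ± 0.0104 FPKM, below all Mef2c libraries but level with the lowest Hand2 library (0.0498 FPKM), and Gata5 at 0.0215 ± 0.0124 FPKM, below all Nkx2-5 libraries.

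Other genes of the cardiogenic program were taken from lists. Of 36 further cardiogenic transcription regulators 32 were tested, and 18 were higher and 7 lower in Eo+ against ESC, 8 and 10 in Eo- against ESC and 16 and 5 in Eo+ against Eo-. The medians were 0.93, 0.01 and 0.84. Their share called, 78.1%, 56.2% and 65.6%, stands beside 71.9%, 62.2% and 47.7% of all loci. Tbx20, a T-box factor of the early heart, was higher by 3.46 ± 0.50 in Eo+ than in Eo- (limma, adjusted p = 9.12e-05), with means of 1.49, 1.60 and 18.0 CPM in ESC, Eo- and Eo+. Mesp2, the paralog of Mesp1 used in somite formation, was higher by 3.81 ± 0.56 (limma, adjusted p = 0.000111). Wt1, a factor of the epicardium and kidney, was lower by 3.28 (SE 0.28; limma, adjusted p = 1.27e-06) and Hopx, a small homeodomain protein of cardiac progenitors, by 2.17 (SE 0.22; limma, adjusted p = 4.85e-06).

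A further list held 17 genes for signals, receptors and early mesoderm factors, and all were tested. In Eo+ against Eo- 16 were higher and 1 lower, with a median of 2.75, where 23.0% of all loci were higher and 24.6% lower. The list holds Eomes, whose reporter set the sort, and without it 15 of 16 were higher and 1 lower between the fractions, with a median of 2.92. In Eo+ against ESC 15 of 17 were higher and 1 lower, with a median of 4.77, where 35.8% of all loci were higher and 36.1% lower. Lhx1, a homeodomain factor of anterior mesendoderm, went from 5.45 CPM in ESC and 23.4 CPM in Eo- to 602 CPM in Eo+ (4.69 ± 0.30 between the fractions; limma, adjusted p = 1.68e-07). Fgf10, a growth factor of the second heart field, was higher by 4.53 ± 0.39 (limma, adjusted p = 1.69e-06). Nodal, the ligand that induces Eomes, was the exception and was lower by 0.78 (SE 0.15; limma, adjusted p = 0.000682).

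Of 18 cardiac effector genes, mostly of the sarcomere, 13 were tested as 12 loci, since Myh6 and Myh7 were assembled as 1 locus. In Eo+ against ESC 3 loci were higher and 4 lower, with a median of -0.32, and 58.3% were called where 71.9% of all loci were. In Eo+ against Eo- 4 were higher and 4 lower, with a median of 0.09, and 66.7% were called where 47.7% of all loci were. Myl7, the atrial myosin light chain, rose from 0.318 CPM in ESC and 1.53 CPM in Eo- to 140 CPM in Eo+ (6.57 ± 0.37 between the fractions; limma, adjusted p = 7.58e-08). Myl4, another atrial light chain, was higher in Eo+ than in Eo- by 2.09 ± 0.26 (limma, adjusted p = 3.18e-05), with means of 3.20, 0.559 and 2.49 CPM in ESC, Eo- and Eo+. Nppb, a natriuretic peptide, was lower by 2.00 (SE 0.45; limma, adjusted p = 0.00256) and Myl2, the ventricular light chain, by 1.95 (SE 0.32; limma, adjusted p = 0.000255).

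Within 50 kb of the regulators 22 other loci were tested, and several that lie head to head with a regulator had the same order of groups. The antisense transcript 1010001N08Rik starts 57 bases from a Gata6 start site, and had 0.0823, 0.0261, 0.0390 and 0.0720 CPM in ESC, 0.203, 0.0881, 0.0587 and 0.0489 CPM in Eo- and 2.48, 2.09, 2.07 and 2.51 CPM in Eo+. It was higher by 4.72 ± 0.36 in Eo+ than in Eo- (limma, adjusted p = 6.36e-07), where Gata6 was higher by 4.90. Another locus, XLOC_032900, a non-annotated transcript 29.6 kb from Gata6 on the same strand, was higher by 4.76 ± 0.38 (limma, adjusted p = 8e-07), with a mean of 4.84 CPM in Eo+. Both were at a few percent of the Gata6 CPM, and the 4 Eo+ libraries of each lay close together.

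At Hand1, the non-annotated antisense locus XLOC_009814 starts 56 bases from a Hand1 start site and had 2.17, 1.28, 0.669 and 1.78 CPM in Eo+ replicates 1, 2, 5 and 6, in the same order of libraries as Hand1. It was higher by 2.56 ± 0.49 than in Eo- (limma, adjusted p = 0.000727). At Hand2, the antisense locus RP24-459A4.1, named Hand2os1 in GENCODE release M21, had 8.11, 1.65, 2.96 and 3.54 CPM in Eo+, again highest in replicate 1 and lowest in replicate 2 as Hand2 was. In Eo- replicate 1, where Hand2 was at 2.73 CPM, RP24-459A4.1 was at 0.651 CPM, while replicates 2, 5 and 6 had 0.289 to 0.422 CPM. The exons of Hand2 and RP24-459A4.1 overlap over 312 bases, those of Gata6 and 1010001N08Rik over 58 bases and those of Hand1 and XLOC_009814, like those of Mesp1 and Mesp2, over 11 bases.

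The Mesp2 locus overlaps that of Mesp1 on the opposite strand and had means of 1.87, 1.58 and 25.1 CPM in ESC, Eo- and Eo+. It rose by 3.50 ± 0.55 in Eo+ against ESC (limma, adjusted p = 5.71e-05) and differed by -0.31 ± 0.70 in Eo- against ESC (limma, adjusted p = 0.719), where Mesp1 rose by 3.72. Anpep, an aminopeptidase gene 10.5 kb from Mesp1, was higher by 1.58 ± 0.26 in Eo+ than in Eo- (limma, adjusted p = 0.000213). Neighbours of other regulators went the opposite way. Neil2, a DNA glycosylase gene 5.37 kb from Gata4, was lower by 1.49 (SE 0.31; limma, adjusted p = 0.00137), and near Gata5 both the non-annotated XLOC_040036 and Rbbp8nl were lower, by 3.86 (SE 0.52; limma, adjusted p = 5.22e-05) and 3.09 (SE 0.22; limma, adjusted p = 3.89e-07). Of all 22 neighbouring loci 9 were higher, 5 lower and 8 not called in Eo+ against Eo-, where 23.0% of all loci were higher and 24.6% lower. Among the higher loci, 1010001N08Rik, XLOC_032900, XLOC_009814 and XLOC_068938 (near Hand2) passed the 0.1 FPKM filter through Eo+ alone. For them the filter itself favoured a highest level in Eo+, so that level is not separate support for a pattern shared with the regulators.

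**Figure D4:**
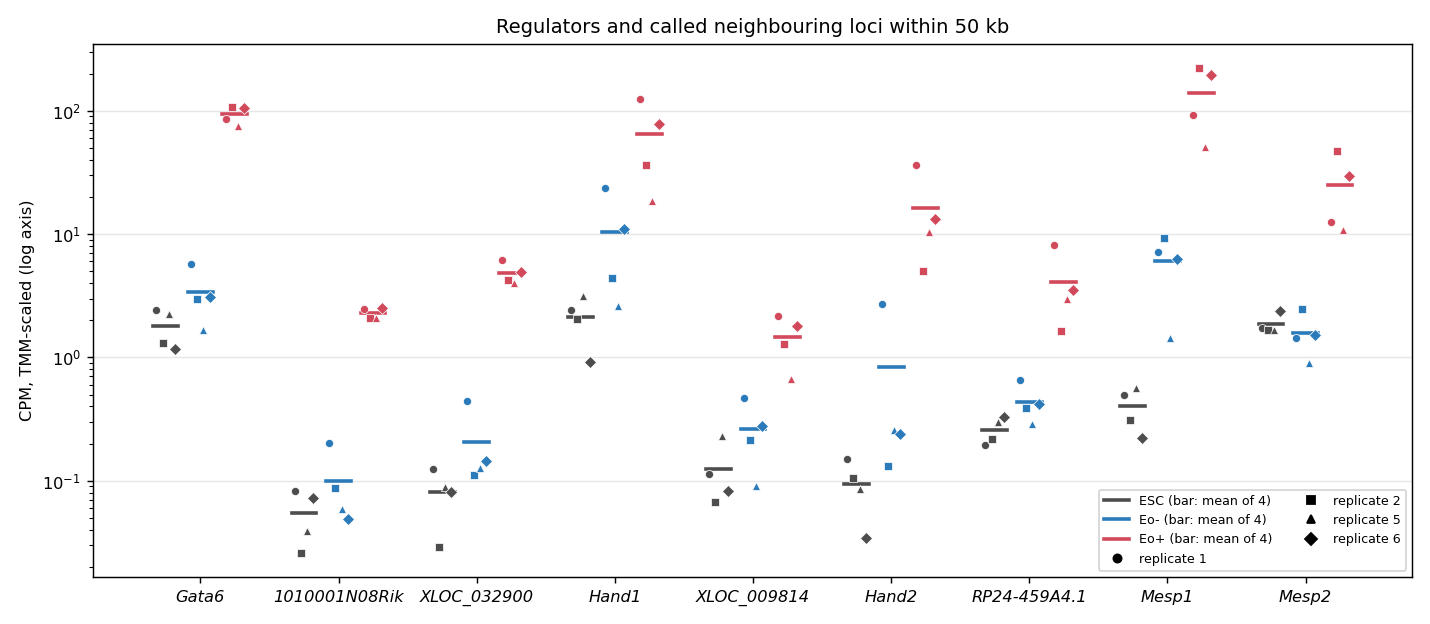
CPM in each of 12 libraries on a log axis for Gata6, Hand1, Hand2 and Mesp1 and for loci near them, with ESC in grey, Eo- in blue, Eo+ in red, point shapes for replicate numbers and bars for group means. 1010001N08Rik and XLOC_032900 stand highest in Eo+ as Gata6 does, and Mesp2, unlike Mesp1, has Eo- (1.58 CPM) at the ESC level (1.87 CPM).

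The likeness of patterns was described by Pearson's r of log2(CPM + 0.5) over the 12 libraries, which share 3 groups, so that any gene high in Eo+ alone scores well. Gata4 and Gata6 were the most alike pair of regulators (r = 0.99), and Nkx2-5 was closest to Smarcd3 (r = 0.82), against at most 0.57 with any other regulator. Smarcd3 ranged from -0.31 to 0.11 with the regulators other than Nkx2-5. Among all protein-coding loci, Pdgfra, a receptor of cardiac and paraxial mesoderm and of primitive endoderm, was nearest to Gata4 (r = 0.993), and Cxcr4, a chemokine receptor of mesendoderm, to Gata6 (r = 0.995). The nearest to Mesp1 was Grrp1 (r = 0.993), to Hand1 Dock8 (r = 0.987), to Hand2 Rdx (r = 0.987), to Isl1 Chrna3 (r = 0.986) and to Mef2c Reln (r = 0.988). Smarcd3 was nearest to Myl4 (r = 0.963) and Nkx2-5 to Slc25a4 (r = 0.972), the heart and muscle type carrier of mitochondrial ADP and ATP.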

How the data were processed

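The authors aligned stranded, paired, poly(A)-selected reads to mm10 with STAR, assembled transcripts with Cufflinks 2.2.1 and Cuffmerge over the Ensembl annotation, and counted reads per assembled locus by strand with HTSeq 0.6.1 in union mode. The STAR version differs between the submitters' notes (2.0.4) and the study's methods. The deposited table holds whole-number counts without scaling for 80012 loci, and 0 columns belonged to other samples. HTSeq tally lines were left out.

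Each locus was named and classed from its matched transcripts, and 98.2% of these identifiers were found in GENCODE release M21. CPM and FPKM were computed from the counts, TMM-scaled library sizes and summed exon length. Loci with a mean above 0.1 FPKM in at least 1 group (14216 protein-coding, 993 annotated and 2713 non-annotated noncoding) were tested with limma 3.58.1 (voom, 1 mean per group over all 12 libraries, two-sided, Benjamini-Hochberg over 17922 loci, called at 0.05) in R 4.3.3. Alternatives were edgeR 4.0.16, DESeq2 1.42.0, other scalings and filters, sample weights, a replicate block and leaving out each library. Scripts were tested on simulated data. Per the study's methods, replicates are 4 differentiation sets of 1 reporter line, so p-values measure the spread between sets. The floor of 3 counts covers counting error only, since no molecular identifiers are described.

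Samples were grouped by their labels. Regulators and lists were chosen with earlier results of these data known. Named genes were the 10 regulators, Eomes, paralogs, tested loci within 50 kb, the nearest of 3 protein-coding loci by r, and per list up to 2 called rises and 2 called falls with the largest difference between fractions. A few of these are given as counts only. Replicate numbers paired the sorted fractions: deviations from group means correlated at 0.312 to 0.634 for equal numbers over 4 pairs, and at -0.408 to 0.28 otherwise. They did not pair ESC with a fraction (-0.125 to 0.43).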

Additional observations from a re-analysis of the deposited data

Results flagged for a closer look

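In 3 of 30 sets of 4 libraries, 1 library stood far from the others by Dixon's gap test, which flags about 1 in 20 sets by chance. Hand2 in Eo- was 2.73 CPM in replicate 1 and 0.132 to 0.257 CPM in the other libraries. Mef2c in Eo- was 3.56 CPM in replicate 1 and 0.954 to 1.13 CPM in the others. Mef2c in Eo+ was 4.71 CPM in replicate 1 and 1.79 to 1.89 CPM in the others. All 3 were replicate 1. In both fractions replicate 1 also had the highest sum of blood and endothelial precursor genes (255 CPM in Eo- and 288 CPM in Eo+) and of visceral or primitive endoderm genes (71.4 and 254 CPM), and the lowest sum of pluripotency genes (1320 and 471 CPM). In Eo- it had the highest sum of trophoblast genes (53.8 CPM). The part of those cells was not tested.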

How the results depend on the processing

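The 27 changes of single regulators were recomputed under each alternative, which gave 600 values. The direction was kept in 600 of them and the side of the threshold in 572, a call was lost in 6 and gained in 22. The regulators called in Eo- against ESC numbered 5 with limma and 9 with edgeR, with DESeq2 and with the replicate block. That block changed the count to 9 in Eo+ against Eo- by adding Mef2c, and left 8 in Eo+ against ESC. Leaving out each library gave 7 to 8 called in Eo+ against ESC, 5 to 7 in Eo- against ESC and 8 to 9 in Eo+ against Eo-. Over all loci leaving out each library gave 12358 to 12873, 10269 to 11314 and 7471 to 8844 called, and requiring a 2-fold change as well gave 6830, 5069 and 3789 in place of 12888, 11154 and 8543. The cause of the differences between tests was not tested. Nkx2-5 was not tested when 1 CPM in 4 libraries was required. A fit on the 2 sorted fractions with the replicate number as a block, chosen after seeing the data, called 9 in Eo+ against Eo-. For edgeR, DESeq2 and the fits with a block the share of all loci called is not given here. Their counts are therefore not read as a trait of the regulators. Counts per library were lowest for Gata5, with 18 to 211, for Hand2 in ESC, with 22 to 118, and for Nkx2-5 in Eo-, with 92 to 172.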
